A study of Mus musculus with 9 samples.

Results

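CC chemokine ligands are small secreted proteins that draw leukocytes toward inflamed tissue. Of 8 ligand genes sought by symbol (Ccl2, Ccl3, Ccl4, Ccl5, Ccl7, Ccl9, Ccl12 and Ccl22), 7 were among the 12204 listed genes, and Ccl12 was not analysed here. All 7 were tested, since each held a log2 CPM (reads scaled to the total of the library) of at least 0 in at least 3 libraries. They were followed in macrophages grown from C57/Bl6J mouse bone marrow for 6 days with 20% L929 cell supernatant. The UT group (3 libraries) was untreated. The LPS group (3 libraries) received 10 ng/ml lipopolysaccharide for 4 h. The LPS + BMS group (3 libraries) received 50 µM BMS303141 for 1 h and then the same LPS. BMS303141 is an inhibitor of ATP-citrate lyase, an enzyme that turns citrate into acetyl-CoA outside mitochondria. The study addressed the role of that enzyme, and of the histone acetylation it feeds, in macrophages stimulated through Toll-like receptors. No group used here had the inhibitor alone, and the labels name no vehicle. Whether replicates were separate mice or cultures is not in the labels. The p-values therefore measure only how far these libraries vary, possibly for technical reasons.

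Lipopolysaccharide binds Toll-like receptor 4 on macrophages. The receptor signals through MyD88 to NF-κB and AP-1 factors, and through TRIF to interferon regulatory factors, and both arms act on chemokine genes. The ligands bind G protein-coupled receptors on the cells they attract: Ccl2 and Ccl7 attract monocytes through Ccr2, Ccl3, Ccl5 and Ccl9 bind Ccr1, Ccl4 attracts monocytes and T cells, and Ccl22 attracts T cells through Ccr4. Many chemokine messengers are short-lived, and AU-rich stretches in their 3′ untranslated regions are bound by decay proteins of the Zfp36 family.

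In GRCm38, 6 of the 7 genes lay on chromosome 11 within 1.63 Mb, and Ccl22 lay on chromosome 8. Ccl2 (ENSMUSG00000035385, chr11:82035571-82037453, plus strand) and Ccl7 (ENSMUSG00000035373, chr11:82045712-82047525, plus strand) were 8.26 kb apart. Ccl5 (ENSMUSG00000035042, chr11:83525778-83530518, minus strand) and Ccl9 (ENSMUSG00000019122, chr11:83572919-83578636, minus strand) followed at a distance of 1478 kb and were 42.4 kb apart. Ccl3 (ENSMUSG00000000982, chr11:83647844-83649355, minus strand) and Ccl4 (ENSMUSG00000018930, chr11:83662584-83664683, plus strand) were 13.2 kb apart and are read from opposite strands. Ccl22 (ENSMUSG00000031779, chr8:94745590-94751699, plus strand) stood apart from this cluster. As 3′ libraries take their reads near transcript ends, the last 400 bases of the annotated transcript with the longest 3′ untranslated region were compared. No pair of the 7 shared a 30-base word, and the longest run in common was 12 bases.

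For each gene, the annotated protein-coding transcript with the longest 3′ untranslated region was taken. Whether the cells used these ends was not tested. These regions differed in their content of ATTTA, the AU-rich pentamer, whose median over 9881 tested genes was 1.37 per kb. Ccl3 held 12.2 per kb (5 in 409 bases), and 0.385% of those genes held more per kb. Ccl4 held 6.62 per kb, Ccl7 4.60, Ccl2 3.64, Ccl9 2.03 and Ccl22 1.10, whereas Ccl5 held 0. The longer nonamer TTATTTATT occurred in 0 of the 7, beside 8.43% of the genes. The 30-base window with most pentamers is shown for one gene of each neighbouring pair on chromosome 11, the one with more of them, with ATTTA in capitals (GENCODE M21 transcripts, GRCm38, 5′ to 3′ on the gene's strand). In Ccl3 and Ccl9 the window held 2 pentamers, which adjoin in Ccl3 and lie 3 bases apart in Ccl9.
Ccl3 (chr11:83648075-83648104, minus strand): ttgaaattttATTTAATTTAatcctattgg
Ccl9 (chr11:83573232-83573261, minus strand): acagtggatctcATTTActgATTTAtgtat
Ccl7 (chr11:82047255-82047284, plus strand): attaatatttttATTTAattagccatgtac

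Promoters of 3 of the 7 genes were matched in the RefSeq set used (GRCm38.p6), and all 3 are shown. In the inhibitor results given after them, Ccl22 passed the test as lower, Ccl3 was lower without passing, and Ccl9 differed by -0.02 log2. Both strands were searched for a loose NF-κB motif (GGG, then NNNNN, then CC), a strict NF-κB motif (GGGA, then NN, then TTCC), an AP-1 motif (TGANTCA) and an interferon-stimulated response element (GAAA, then NN, then GAAA), from 250 bases before to 50 bases after the RefSeq start. Of 32851 promoters, 50.8% held the first motif, 1.47% the second, 7.81% the third and 3.44% the fourth. Among the 10416 promoters of tested genes these shares were 67.3%, 1.55%, 5.02% and 3.36%. Matches within the printed bases are in capitals. The printed bases of Ccl22 end 94 bases before its RefSeq start, while those of Ccl9 and Ccl3 run up to it. The Ccl22 matches begin at -162 and -131 from that start. Ccl22 held 2 loose NF-κB matches, both on the opposite strand, so that the capitals read as their complement. Ccl9 held a loose NF-κB match on the opposite strand and, upstream of it, an AP-1 match. Every strict match is also a loose one. The Ccl3 window held no match to these letters.
Ccl22 (chr8:94745434-94745589, plus strand): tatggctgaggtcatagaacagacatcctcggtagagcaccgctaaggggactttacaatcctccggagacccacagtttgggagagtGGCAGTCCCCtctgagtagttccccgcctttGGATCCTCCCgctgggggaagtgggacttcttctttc
Ccl9 (chr11:83578637-83578886, minus strand): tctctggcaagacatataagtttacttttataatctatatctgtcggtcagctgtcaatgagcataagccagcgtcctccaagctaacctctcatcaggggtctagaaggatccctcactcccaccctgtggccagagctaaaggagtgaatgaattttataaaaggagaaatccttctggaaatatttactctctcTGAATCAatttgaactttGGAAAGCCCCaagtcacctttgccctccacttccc
Ccl3 (chr11:83649379-83649628, minus strand): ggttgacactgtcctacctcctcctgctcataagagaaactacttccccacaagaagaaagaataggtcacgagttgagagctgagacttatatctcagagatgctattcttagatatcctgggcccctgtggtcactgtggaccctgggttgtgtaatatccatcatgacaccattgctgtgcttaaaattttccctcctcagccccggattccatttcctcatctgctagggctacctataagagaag

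Levels are the authors' log2 CPM of 3′ end reads, which are not divided by transcript length. Their values show quantile normalisation, in which a level is set by the rank of the gene in its library. Genes at the same rank in different libraries therefore hold the same value. Library depth on the listed genes, read approximately from the value steps, was 3.21 to 5.05 M (mega) reads in UT, 1.84 to 3.21 M in LPS and 3.56 to 3.75 M in LPS + BMS. LPS replicate 1 was the shallowest and stood apart, with 348 genes at its lowest value against 66 to 151 in the other 8 libraries. All 10 macrophage markers were listed and summed to 11979 to 12501 CPM in UT, 5854 to 6266 in LPS and 5350 to 5618 in LPS + BMS. These are bulk samples, in which fewer cells of a type and less RNA per cell cannot be told apart. PCR copies were not told apart by molecular identifiers, so read numbers are not numbers of molecules.

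LPS raised all 7 ligands, from a nearly silent state for Ccl22, Ccl7 and Ccl2 and from an already high one for Ccl9. With limma, 7 of 7 were called higher at an adjusted p under 0.05, beside 21.5% of the 12196 tested genes. Ccl2, Ccl7 and Ccl22 were under 0 log2 CPM in every UT library and passed the filter only through treated libraries. The 7 were also chosen with earlier results of these data known, so the count is a description and no test of the group. The largest rise on a measurable baseline was that of Ccl5, 483-fold, and the smallest that of Ccl9, 6.12-fold. The median difference of the 7 was 6.41 on the log2 scale, or 5.31 with the UT values of Ccl22 and Ccl7 (0 to 1 reads) set to a floor of 3 reads per library, beside -0.06 over all tested genes. For all 7 genes every library of both treated groups lay above every UT library, as it did for 23.7% of all tested genes in LPS and 27.2% in LPS + BMS.

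Ccl5, which encodes a chemoattractant for T cells and monocytes, was at 2.42, 1.83 and 0.64 log2 CPM in UT replicates 1 to 3. It was at 10.37, 10.77 and 10.51 in LPS, and at 9.80, 10.16 and 9.72 in LPS + BMS. The LPS libraries were all far above the UT libraries, and the LPS + BMS libraries all lay under the lowest LPS library. From UT to LPS it rose by 8.92 log2 (SE 0.32, n = 3 per group, adjusted p = 9.76e-11, limma). Its UT values rest on about 5 to 28 reads. From LPS to LPS + BMS it differed by -0.66 (95% interval -1.35 to 0.04, adjusted p = 0.365), which did not pass.

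Ccl3, an attractant of monocytes and T cells, was at 3.13, 3.45 and 3.46 log2 CPM in UT. It was at 10.42, 10.61 and 10.55 in LPS, and at 10.07, 10.28 and 9.77 in LPS + BMS. The groups did not overlap, and the LPS libraries were the highest. LPS raised it 145-fold (7.18 log2, SE 0.14, adjusted p = 8.43e-13, limma), which ranked 2 by p among all tested genes. The inhibitor difference was -0.49 (95% interval -0.78 to -0.19), a 1.40-fold lower level, with an adjusted p of 0.0965 over all tested genes.

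Ccl4, the close relative and neighbour of Ccl3, was at 5.09, 4.67 and 4.82 log2 CPM in UT. It was at 10.48, 11.81 and 11.51 in LPS, and at 11.44, 11.81 and 11.67 in LPS + BMS. LPS replicate 1 was about 1 log2 unit below the other LPS libraries, and the LPS and LPS + BMS groups overlapped. LPS raised it 84.8-fold (6.41 log2, SE 0.25, adjusted p = 2.68e-10, limma). The inhibitor difference was 0.37 (95% interval -0.18 to 0.92, adjusted p = 0.528), and it was -0.02 without LPS replicate 1 and 0.65 without LPS replicate 2. Ccl4 was the most abundant of the 7 in every LPS-treated library, at ranks 13 to 40 among all listed genes in LPS and 13 to 18 in LPS + BMS.

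Ccl9, a ligand of rodents that attracts myeloid cells, was at 7.67, 7.63 and 7.99 log2 CPM in UT. It was at 10.35, 10.39 and 10.39 in LPS, and at 10.28, 10.30 and 10.51 in LPS + BMS. The UT level was the highest of the 7 genes, and the LPS and LPS + BMS libraries were interleaved. LPS raised it by 2.61 log2 (SE 0.11, adjusted p = 5.28e-10, limma). The inhibitor difference was -0.02 (95% interval -0.26 to 0.22, adjusted p = 0.963), the narrowest interval of the 7.

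Ccl2, the main monocyte attractant, was at -0.16, -0.79 and -0.30 log2 CPM in UT, or about 2 to 5 reads. It was at 3.87, 5.69 and 5.13 in LPS, and at 4.64, 4.90 and 3.49 in LPS + BMS. LPS separated the libraries clearly from UT, whereas the LPS and LPS + BMS groups overlapped, with LPS replicate 1 and LPS + BMS replicate 3 the lowest of the 6. The rise with LPS was 5.31 log2 (SE 0.45, adjusted p = 4.61e-07, limma), imprecise at so few UT reads. The inhibitor difference was -0.55 (95% interval -1.52 to 0.42, adjusted p = 0.604), an interval that spans 0 and a fall of more than 1 log2 unit. It was -1.07 without LPS replicate 1, -0.15 without LPS replicate 2, -0.83 without LPS + BMS replicate 2 and -0.12 without LPS + BMS replicate 3.

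Ccl7, which shares the receptor Ccr2 with Ccl2, was at -2.85, -1.58 and -0.87 log2 CPM in UT, where it held 0 to 1 reads. It was at 4.35, 4.75 and 4.38 in LPS, and at 2.95, 3.84 and 2.56 in LPS + BMS. All LPS libraries were above all LPS + BMS libraries, and LPS + BMS replicate 2 was the closest to them. The rise with LPS passed the test (adjusted p = 1.67e-07, limma), and no fold is given at so few UT reads. The inhibitor difference was -1.38 (SE 0.48, 95% interval -2.41 to -0.35), a 2.59-fold lower level, with an adjusted p of 0.187.

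Ccl22, an attractant of Ccr4-bearing T cells that dendritic cells and activated macrophages secrete, was at the lowest value of all 3 UT libraries. It was at 3.35, 4.30 and 3.99 log2 CPM in LPS, or about 17 to 58.9 reads. In LPS + BMS it was at 1.52, 1.81 and 1.60, or about 10 to 12 reads. The groups did not overlap, and the LPS + BMS libraries lay close together between UT and LPS. Against a floor of 3 reads per UT library, LPS raised Ccl22 at least 19.4-fold (adjusted p = 3.14e-08, limma, on the deposited values). With the inhibitor it was 4.71-fold lower than with LPS alone (-2.24 log2, SE 0.42, 95% interval -3.15 to -1.32, adjusted p = 0.0152).

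**Figure D1:**
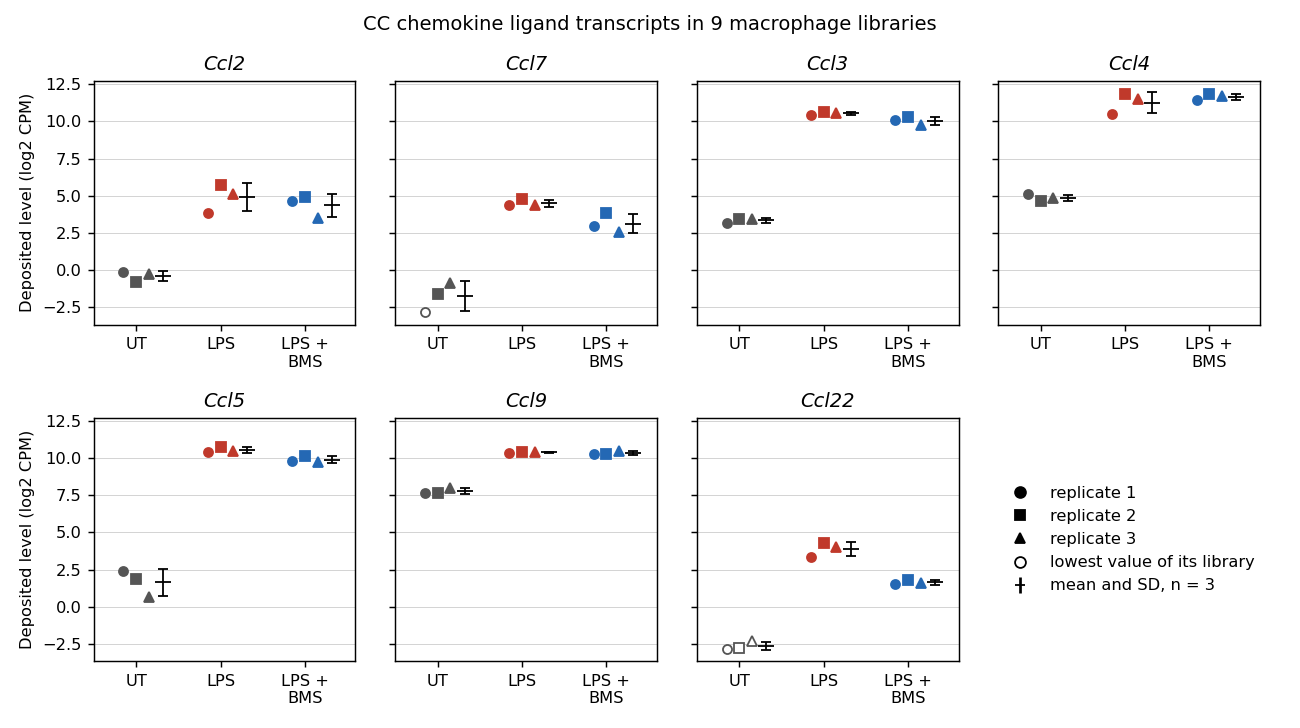
Deposited level (log2 CPM, y axis) of each of the 7 ligands in the 9 libraries, by group (x axis). Symbols are replicates, open symbols are the lowest value of a library, and bars are the mean and SD (n = 3); Ccl22 lies between 1.52 and 1.81 in LPS + BMS, under all LPS libraries, while the Ccl9 values of these groups are interleaved.

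With BMS303141 ahead of LPS, Ccl22 was the ligand that passed the test, and the other 6 did not. In this comparison limma called 1.16% of all tested genes lower and 2.12% in either direction (117 higher and 141 lower, or 53 and 109 with centring on ribosomal protein genes). For Ccl22, Ccl7, Ccl5 and Ccl3, 4 of 7, all LPS + BMS libraries lay under all LPS libraries, beside 11.2% of all tested genes. The median difference of the 7 was -0.55, which is the value of Ccl2, and ran from -0.79 to -0.35 (without LPS + BMS replicates 2 and 3) with 1 library left out, beside -0.0043 over all tested genes, and 6 of 7 differences were negative. The call of Ccl22 ended when any of LPS replicates 2 or 3 or LPS + BMS replicates 1, 2 or 3 was left out, with adjusted p of 0.0509 to 0.0936 and differences of -2.32 to -2.02. Without the shallow LPS replicate 1 it stood at -2.50 (adjusted p = 0.0204). Both comparisons use the same LPS libraries, so a low or high LPS library enters them with opposite signs.

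**Figure D2:**
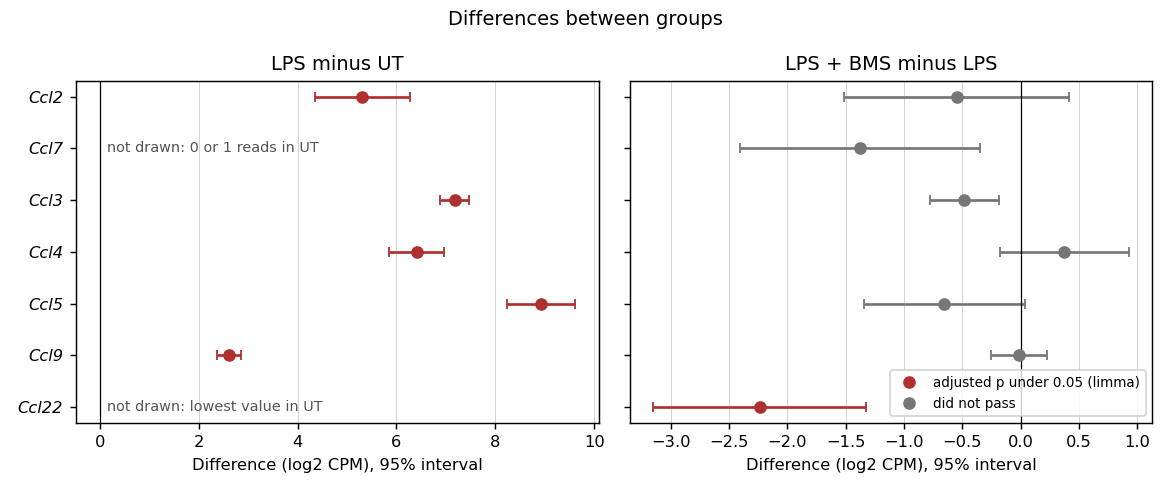
Differences between group means (log2 CPM, x axis) with 95% intervals for LPS minus UT (left) and LPS + BMS minus LPS (right); red points passed an adjusted p under 0.05 in limma and grey ones did not. All drawn LPS differences lie above 0, and on the right Ccl22 (-2.24) is the red point.

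The order of replicates was shared in the LPS group and not in the others. LPS replicate 1 was the lowest and LPS replicate 2 the highest of the LPS libraries for all 7 genes, level with LPS replicate 3 for Ccl9. Of all tested genes 21.8% had this order, and of those called higher with LPS 27.9%. The spread was wide for Ccl2 (SD 0.94 log2 in LPS) and Ccl4 (0.70) and narrow for Ccl9 (0.03) and Ccl3 (0.10). In LPS + BMS, replicate 2 was the highest for all but Ccl9, while replicate 3 was the lowest for Ccl2, Ccl3, Ccl5 and Ccl7 and the highest for Ccl9. In UT, replicate 3 was the lowest for Ccl5 and the highest for Ccl3, Ccl7, Ccl9 and Ccl22. For Ccl3 it was close to replicate 2 (3.456 against 3.451 log2 CPM). Ccl7 held 1 read in both replicates 2 and 3, and Ccl22 was at the lowest value of each UT library.

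The ligands also stood above UT with the inhibitor present. In LPS + BMS against UT, 7 of 7 were called higher, beside 21.5% of all tested genes. The limits of filter and choice given for LPS against UT hold for this count too. Ccl5 was 307-fold, Ccl4 110-fold, Ccl3 104-fold and Ccl9 6.05-fold above UT (limma, adjusted p from 2.10e-12 for Ccl3 to 5.88e-10 for Ccl9). Ccl2 was 4.76 log2 above UT (SE 0.45, adjusted p = 1.47e-06), Ccl7 passed the test (adjusted p = 2.12e-06), and Ccl22 was at least 4.12-fold above the floor of 3 reads per UT library (adjusted p = 2.31e-06).

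With levels set by rank, sums and shares of them are not fractions of reads. The summed level of the 7 genes grew from 239 to 297 CPM in UT to 5470 to 8341 in LPS. It was 6021 to 7285 in LPS + BMS, so the last 2 groups overlapped. In UT, Ccl9 made up 83.0% ± 2.6 (SD, n = 3) of this sum and Ccl4 11.2% ± 2.1. In LPS, Ccl4 made up 36.4% ± 9.1, Ccl5 21.7% ± 2.2, Ccl3 21.4% ± 3.3 and Ccl9 19.5% ± 3.9. Ccl2, Ccl7 and Ccl22 each held under 1% of the sum. In LPS + BMS, Ccl4 made up 48.6% ± 2.3, Ccl9 20.2% ± 2.7, Ccl3 16.2% ± 2.3 and Ccl5 14.5% ± 1.4. The share of Ccl4 ranged from 26.1% to 43.0% in LPS and from 46.1% to 50.5% in LPS + BMS, without overlap. LPS replicate 1 had the lowest share, and LPS replicate 3 was at 40.05%. The order in LPS was Ccl4, Ccl5, Ccl3, Ccl9, Ccl2, Ccl7 and Ccl22 by mean log2 CPM. Neighbours overlapped between libraries for Ccl4 and Ccl5, for Ccl5 and Ccl3, and for Ccl2 and Ccl7, while the others did not.

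**Figure D3:**
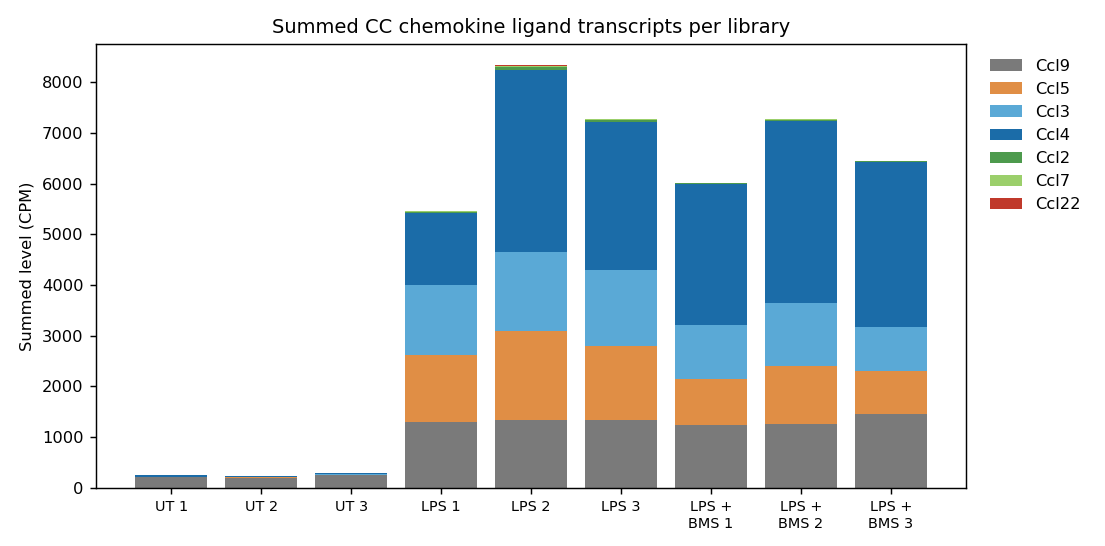
Summed level of the 7 ligands (CPM, y axis) in each library (x axis), stacked by gene. The UT bars, mostly Ccl9, reach 239 to 297 CPM, and the treated bars 5470 to 8341 CPM, of which Ccl2, Ccl7 and Ccl22 are barely visible.

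Genes whose levels followed a ligand most closely over the 9 libraries were sought among those at or above the median level. These correlations mostly reflect the distance between UT and the 6 treated libraries and are given as descriptions. The choice used all 9 libraries, so it favours genes that differ between LPS and LPS + BMS as the ligand does, and their inhibitor tests add no support to that of the ligand. Ccl22 was followed most closely by Appl1 (Pearson r = 0.996), an endosomal adaptor, and by the interferon-inducible genes Rtp4 (0.995) and Mx2 (0.990). The inhibitor differences of these genes were -0.69 for Appl1 (adjusted p = 0.00897, limma), -0.72 for Rtp4 (0.0112) and -1.57 for Mx2 (0.000549). Ccl7 was followed by Aebp2 (0.997), Oasl1 (0.993) and Tnf (0.992). Of these, Oasl1, an interferon-inducible gene, fell by 1.05 with the inhibitor (adjusted p = 0.0271) and Tnf, the cytokine, by 1.11 (adjusted p = 0.0178). Ccl3 was followed by Clec5a, a myeloid lectin receptor (0.9999), Cxcl2 (0.999) and Rab11fip1 (0.999), and Ccl5 by Gbp5 (0.999), Ampd3 (0.998) and AI504432 (0.998). Ccl9 was followed by Herpud1 (0.999), Sdc4 (0.998) and Tnfrsf1b (0.998), Ccl4 by Tpm4 (0.999), Ptprj (0.998) and Slc31a2 (0.997), and Ccl2 by Sertad2 (0.993), Rbm7 (0.992) and Peli1 (0.992). The genes named beside Ccl2, Ccl3, Ccl4, Ccl5 and Ccl9, and Aebp2, rose with LPS and did not pass the inhibitor test (adjusted p of 0.0943 for Rab11fip1 and higher for the others).

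Most listed CXC ligands rose with LPS as well, while other CC ligands were mostly not listed. Of 15 other CC and related ligands 3 were listed. Ccl6, the relative of Ccl9 in the same gene cluster, fell with LPS by 0.77 (SE 0.17, adjusted p = 0.0023, limma), against the rise of Ccl9, and differed by 0.03 with the inhibitor. Cx3cl1, which encodes fractalkine, rose by 2.85 (SE 0.56, adjusted p = 0.000978), and Ccl25 passed neither test. In every UT library Cx3cl1 was under 0 log2 CPM, so it passed the filter only through treated libraries. Of 9 listed CXC ligands, 8 rose and 1 fell with LPS, beside 2628 higher and 3102 lower of 12196 tested genes. Among those that rose, Cxcl3, Cxcl9 and Cxcl11 were under 0 log2 CPM in every UT library. They passed the filter only through treated libraries, so this count is a description. With limma 0 of 9 were called with the inhibitor. At an unadjusted p under 0.05, 2 of 9 were lower, as were 3 of the 7 CC ligands and 7.68% of all tested genes. Cxcl2, the neutrophil attractant and the most abundant of them, rose 301-fold (8.23 log2, SE 0.21, adjusted p = 4.91e-12), and its inhibitor difference was -0.35 (adjusted p = 0.461). Cxcl10, the interferon-inducible T cell attractant, rose 180-fold, and its inhibitor difference was -1.25 (SE 0.31, adjusted p = 0.0537).

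The listed receptors of CC ligands summed to 26.4 to 30.5 CPM in UT, 137 to 176 in LPS and 55.8 to 107 in LPS + BMS. Of 6 listed, 2 rose and 1 fell with LPS, beside 2628 higher and 3102 lower of 12196 tested genes. With the inhibitor 1 was lower, beside 1.16% of all tested genes. That gene was Ccrl2, an atypical receptor that does not signal as other chemokine receptors do, at 0.67, 1.06 and 0.64 log2 CPM in UT, 7.02, 7.31 and 6.90 in LPS and 5.81, 6.27 and 5.05 in LPS + BMS. It rose 78.2-fold with LPS (adjusted p = 4.31e-10, limma) and fell by 1.37 with the inhibitor (SE 0.26, adjusted p = 0.0163), without overlap.

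Genes of Toll-like receptor 4 signalling mostly rose with LPS. Of 20 listed, 13 rose and 4 fell, beside 2628 higher and 3102 lower of 12196 tested genes. The 4 were Tlr4 itself (-1.47, SE 0.18, adjusted p = 1.86e-05, limma), Irak1, Irak4 and Tab1. With the inhibitor 2 were called, both lower, beside 1.16% of all tested genes called lower. Ikbkb, a kinase that releases NF-κB, rose by 1.52 with LPS and fell by 0.47 with the inhibitor (SE 0.11, adjusted p = 0.0372, limma). Ticam2, the adaptor that joins TRIF to the receptor, rose by 1.55 and fell by 1.32 with the inhibitor (SE 0.21, adjusted p = 0.0068). Cd14, the coreceptor for LPS and the most abundant of the list, rose by 1.80, and its inhibitor difference was 0.64 (adjusted p = 0.347).

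Of 25 listed NF-κB, IRF, STAT and AP-1 factors and their regulators, 18 rose and 5 fell with LPS. Among all 12196 tested genes, 2628 were called higher and 3102 lower. With the inhibitor 2 of the 25 were higher and 3 lower, beside 117 and 141 of all tested genes. The NF-κB subunits Rel (-0.82, SE 0.11, adjusted p = 0.00173, limma) and Nfkb1 (-0.54, SE 0.11, adjusted p = 0.0186) and the interferon signalling factor Stat2 (-0.86, SE 0.16, adjusted p = 0.0148) were lower. Irf8, a myeloid interferon regulatory factor (1.10, SE 0.11, adjusted p = 0.000482), and Jun, an AP-1 subunit (0.64, SE 0.13, adjusted p = 0.0268), were higher, and both had fallen with LPS. Nfkb1 rose by 2.66 with LPS (adjusted p = 2.75e-10). Nfkbia, the NF-κB inhibitor and the most abundant of the list, rose by 3.16 with LPS, and its inhibitor difference was 0.27 (adjusted p = 0.537).

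Of 12 listed genes of messenger decay and of chemokine anchoring at the cell surface, 7 rose and 2 fell with LPS, and 1 was higher with the inhibitor. Among all 12196 tested genes, 2628 were called higher and 3102 lower with LPS, and 117 were higher with the inhibitor. Zfp36l1, which encodes a protein that binds AU-rich elements and speeds messenger decay, was at 8.01, 7.60 and 7.58 log2 CPM in UT, 3.65, 4.14 and 4.17 in LPS and 6.29, 5.97 and 6.04 in LPS + BMS. It fell by 3.75 with LPS (adjusted p = 1.11e-09, limma) and rose by 2.11 with the inhibitor (SE 0.17, adjusted p = 6.54e-05), a 4.32-fold higher level without overlap. Zfp36, of the same family, rose by 0.99 with LPS (SE 0.16, adjusted p = 0.000214, limma). It was at 9.83, 9.43 and 9.51 log2 CPM in LPS and 9.88, 9.87 and 9.80 in LPS + BMS. Zfp36l2 went from 6.46, 6.54 and 6.97 in UT to 2.38, 2.19 and 2.95 in LPS. In LPS + BMS it was at 2.35, 2.63 and 3.45, overlapping LPS. Sdc4, a heparan sulfate proteoglycan that binds chemokines, rose by 4.27 with LPS (SE 0.12), and its inhibitor difference was -0.20 (adjusted p = 0.464).

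**Figure D4:**
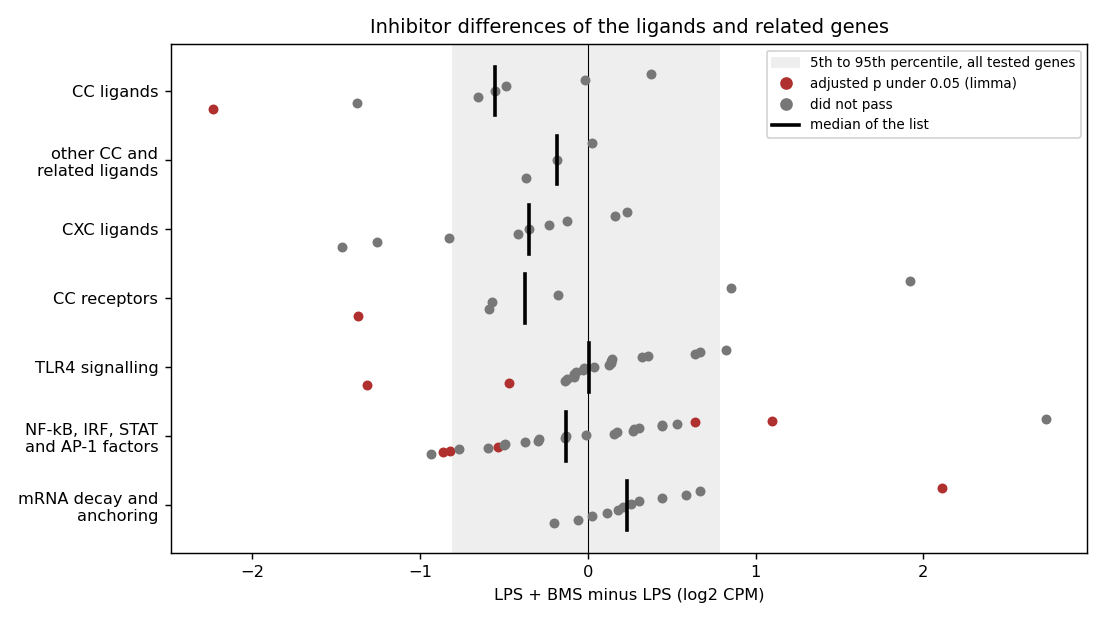
Differences of LPS + BMS minus LPS (log2 CPM, x axis) for the 7 CC ligands and the listed members of 6 related lists (y axis). Points are genes, red where the adjusted p was under 0.05 in limma, bars are medians, and the grey band spans the 5th to 95th percentile of all tested genes (-0.80 to 0.78); the CC ligand median is -0.55, with Ccl22 as the red point.

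Dendritic cells also secrete Ccl22, but most of their markers were not listed. Of 9 such markers 2 were listed, Itgax and Fscn1. They summed to 3.19 to 4.39 CPM in UT, 25.7 to 30.02 in LPS and 8.34 to 9.81 in LPS + BMS. Itgax, an integrin that macrophages also express, fell by 1.68 with the inhibitor (SE 0.27, adjusted p = 0.00587, limma), and Fscn1 differed by -1.43 (adjusted p = 0.141). The part of these cells in the Ccl22 result was not tested. Of 10 neutrophil markers 2 were listed, and they summed to 7.81 to 29.6 CPM in UT, 33.9 to 60.9 in LPS and 172 to 264 in LPS + BMS, where S100a8 rose by 2.29 over LPS (SE 0.34, adjusted p = 0.00377). The other, S100a9, passed neither test, with -0.43 for LPS against UT (adjusted p = 0.757) and 0.49 with the inhibitor (adjusted p = 0.863), where replicates were at 2.74, -0.06 and -0.05 log2 CPM. Hdc, 1 of 6 mast cell and basophil markers listed, rose by 5.56 with LPS and fell by 0.70 with the inhibitor (adjusted p = 0.0319). Of 10 lymphocyte and NK cell markers 1 was listed (Lck, called in neither comparison), and of 6 erythroid markers 0 were listed. Of 7 stromal markers 4 were listed, with 1 higher with LPS. That gene, Pdgfrb, was at the lowest value of every UT library and passed the filter only through treated libraries.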

How the data were processed

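Messenger RNA 3′ ends were measured in 9 libraries with the QuantSeq kit (forward version), from 100 ng RNA and 16 PCR cycles, per the labels' protocols. Per the submitters' processing notes, the tools were featureCounts 1.5.1, STAR 2.5.2b, edgeR, limma and MultiQC, with no role given, and the build was GRCm38 (mm10). Strand setting and annotation are not given in sources used here. One table was deposited by the authors, made up of log2 scores, which its values show to be log2 CPM with the same distribution in every library (quantile normalisation), which hides a shift common to most genes. Approximate read numbers come from the steps between low values.

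Of 12204 identifiers 12181 matched a symbol, and 23 did not. A gene needed 0 log2 CPM or more in 3 or more libraries to be tested (12196 genes; 8 removed). One model with a mean per group over all 9 libraries was fitted in limma 3.58.1 (R 4.3.3; eBayes with mean trend, two-sided, Benjamini-Hochberg over all tested genes, calls at an adjusted p under 0.05) and tested on simulated data. SE is the moderated standard error. The 17 alternatives were a replicate block, 2 other filters, 2 other centrings, no mean trend, library weights, only the groups compared and leaving out each of 9 libraries.

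The members and all gene lists were chosen with earlier results of these data known. Named beside the members were the 3 genes most correlated with each (no predicted genes) and, of each list, the smallest p in both comparisons and the most abundant. Other called genes of a list (Rel, Stat2, Jun, Tlr4, Irak1, Irak4, Tab1, Cxcl3, Cxcl9, Cxcl11, Pdgfrb and Zfp36) were named after their values were seen. So were Ccl25, Fscn1, S100a9, Lck and Zfp36l2. One receptor result is not reported here.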

Additional observations from a re-analysis of the deposited data

How the results depend on the processing

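All 7 ligands were called higher than UT in both treated groups under all 17 alternatives. In LPS + BMS against LPS, 258 genes were called in the reported fit. The count was 162 (53 higher, 109 lower) with centring on 75 ribosomal protein genes, 99 without a mean trend and 814 with library weights, and 62 to 317 with 1 library left out. Ligands called numbered 3 with library weights (Ccl22, Ccl3 at adjusted p = 0.00942 and Ccl7 at 0.0418), 3 with only the groups compared (Ccl22, Ccl5 at 0.0427 and Ccl7 at 0.042) and 0 to 1 with 1 library left out. LPS replicate 1 had the lowest library weight, 0.283. The cause of these shifts was not tested.

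With 1 library left out, the inhibitor difference of Ccl4 ran from -0.0201 (without LPS replicate 1) to 0.65, and that of Ccl9 from -0.0894 to 0.0226, above 0 without LPS + BMS replicate 1 or 2. Of the other results for single ligands, 345 kept their direction and side of the threshold. The calls of Ccl22 that ended without single libraries stand beside its result.

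The replicate numbers were not taken as pairing. Same-numbered libraries correlated at -0.30 to 0.17 in their deviations from group means. With the number as a block, 208 genes were called in LPS + BMS against LPS, 5531 in LPS against UT and 5558 in LPS + BMS against UT, and 1, 7 and 7 ligands.

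Levels under about 1 CPM rest on a few reads, which limits Ccl2, Ccl7 and Ccl22 in UT.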
